A study of Mus musculus with 12 samples.

Results

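The transcripts of TGF-β-treated mesenchymal stem/stromal cells (MSCs) with and without p38α, the stress-activated kinase encoded by Mapk14, were compared across all 17097 measured genes. The comparison rests on 6 of the 12 arrays of the study: 3 of TGF-β-treated p38α∆ MSCs (array numbers 1, 2 and 4) and 3 of TGF-β-treated WT MSCs (array numbers 1, 3 and 4). Of the other 6 arrays, 4 of untreated WT MSCs (numbers 1, 3, 4 and 4b) and 2 of untreated p38α∆ MSCs (numbers 1 and 3) were used to set the same genes beside their untreated levels. The MSCs were derived from bone marrow of mice with floxed Mapk14 alleles and a transgene for a tamoxifen-inducible Cre, and were immortalized. Both WT and p38α∆ MSCs carry the transgene. p38α∆ MSCs were exposed to 4-hydroxytamoxifen to delete the floxed alleles and WT MSCs, which keep them, to vehicle, so that the groups differ in the deletion and in the drug. The labels give the strain FVB/NJ and the methods a C57BL/6J background. Cells were starved in 0.5% serum, and the treated groups received 5 ng/ml TGF-β for 20 h. Neither the labels nor the methods explain the array numbers or state that the arrays came from separate cultures, so that p-values measure the spread between these arrays, which may be technical.

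TGF-β binds a pair of receptor kinases that phosphorylate Smad proteins, and it also activates p38α and JNK through the kinase TAK1. JNK phosphorylates Jun, which pairs with Fos proteins to form AP-1, a transcription factor that binds the sequence TGANTCA. Factors of the CREB and ATF families bind the related CRE sequence TGACGTCA. Immediate early genes are those that growth factors and stress switch on within minutes without new protein synthesis, and many encode AP-1 subunits or phosphatases that turn the kinases off again.

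Values are log2 probeset levels normalized by RMA, and a difference is the limma estimate of TGF-β-treated p38α∆ minus TGF-β-treated WT, so that 1 is a doubling. The 4 arrays numbered 1, 1 in each group, stood apart from the other 8 on the first principal component, which held 51.2% of the variance, and the second, 26.0%, separated treated from untreated arrays. Differences within number 1 and within number 4, each 1 array against 1 array, are therefore given beside the lists of the main results. Of 8 measured MSC markers 6 lay above the median level of all genes (4.80), led by Pdgfrb at 9.42. None of 10 endothelial or 9 leukocyte markers did, and 1 of 7 epithelial markers did (Krt19). The summed endothelial marker level ran from 34.8 to 37.8 in TGF-β-treated WT arrays and from 36.0 to 38.6 in TGF-β-treated p38α∆ arrays, and the summed leukocyte marker level from 33.3 to 34.1 and from 33.5 to 34.8. The summed levels of 8 MSC markers, among them Mcam, which passed, ran from 51.7 to 52.2 and from 52.6 to 53.1, and those of 4 adipocyte markers, of which only Pparg lay above the median of all genes, from 14.9 to 15.0 and from 15.3 to 15.6, so that the genotypes did not overlap for either. All 4 adipocyte markers were higher and none passed. The part of these levels in the results was not tested. Of 4 osteoblast markers 3 were also above that median, led by Sp7 at 8.75, and 2 of 5 chondrocyte markers, led by Sox9 at 8.17. Mapk14 itself was represented by 6 probesets, of which none passed, and their position relative to the deleted exon is not given, so they do not check the labels. The probeset of Mapk14 kept here, at a mean of 5.40, had log2 levels of 5.24, 5.70 and 6.01 in the treated WT arrays and 5.16, 5.76 and 5.89 in the treated p38α∆ arrays. Over the 6 probesets the differences ran from −0.06 for this one to 0.19 for the brightest, at a mean of 9.19 (unadjusted p = 0.027 in limma).

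TGF-β-treated p38α∆ MSCs had higher levels of several AP-1 and immediate early genes and lower levels of a few genes of DNA replication and metabolism than TGF-β-treated WT MSCs. With an adjusted p under 0.05, 54 genes were higher (0.316% of those tested) and 11 lower (0.0643%). The rises ran from 0.43 (St6gal1) to 1.74 (Ccn2) and the falls from −0.49 to −1.03 (Tmem86a). With each array centred on its median, 46 were higher and 3 lower. The count leaned on the modelling of the array number: without it as a block 5 genes were higher and none lower (adjusted p in limma). When each of the 6 treated arrays was left out in turn, between 5 and 23 were higher and between 0 and 2 lower. A gene passed in a median of 5 of the 12 settings that left out 1 array, from 12 for Ccn2, Maff and Mcam to 0 for Zfp467, Angptl4 and Rtl3. For all 65 genes the 3 arrays of one genotype lay wholly above the 3 of the other, against 4.67% of all genes for higher and 3.29% for lower, and this description follows closely from the way they were chosen. For 25 of these genes there were 42 other probesets. Of these 37 differed in the same direction, 30 of them with an unadjusted p under 0.05 in limma, and 5 in the opposite direction, none of them with such a p. They were read on the same arrays that chose the genes, so they are not independent of that choice. The share over all probesets was not computed.

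**Figure D1:**
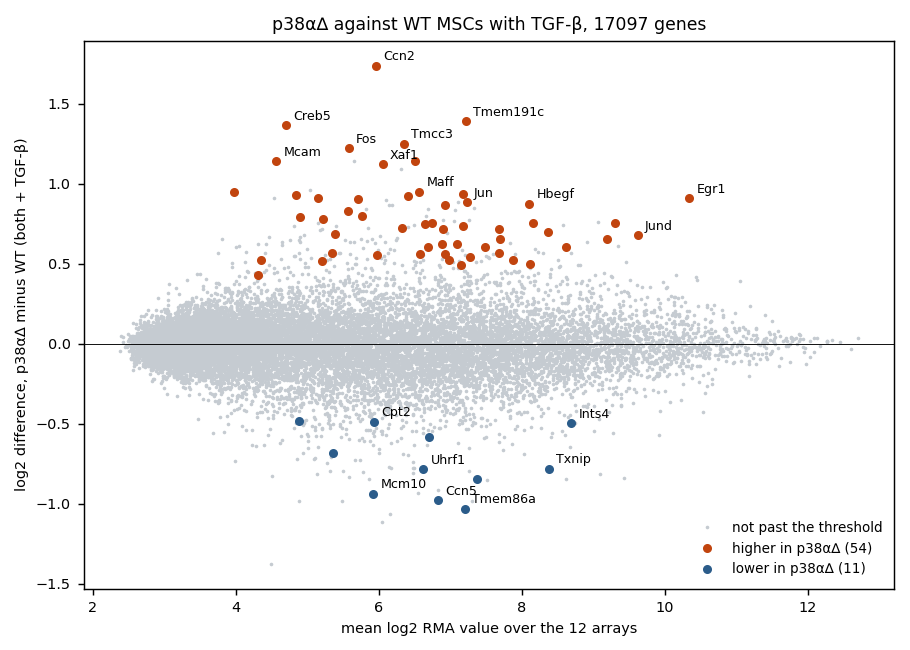
Log2 difference of p38α∆ minus WT MSCs, both treated with TGF-β (vertical axis), against the mean log2 RMA value over the 12 arrays (horizontal axis), 1 point per gene. The 54 genes that were higher (orange) and the 11 that were lower (blue) lie over most of the range of levels, with Ccn2 at 1.74 and Tmem86a at −1.03 at the ends.

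AP-1 and CRE-binding factors held the largest share of genes that passed. Of 28 measured members of the AP-1 and CREB/ATF list, 6 rose (Jun, Jund, Fos, Fosb, Maff and Creb5), none fell and 22 did not pass. The list median was 0.12 (0.09 within number 1 and 0.19 within number 4), beside −0.01 for all genes, and 9 members had an unadjusted p under 0.05 and a higher level, beside 4.29% of all genes. Jun, the JNK substrate of AP-1, had log2 levels of 7.33, 7.28 and 7.57 in the treated WT arrays and 8.06, 8.48 and 8.38 in the treated p38α∆ arrays, a difference of 0.89 (SE 0.11, adjusted p = 0.011). All untreated arrays lay below both groups, between 6.39 and 6.74, and the groups did not overlap. Its other probeset gave 0.82. Maff, a small Maf protein that dimerizes with other leucine zipper factors and lacks an activation domain, went from 6.74, 6.61 and 6.80 to 7.67, 7.91 and 7.57, by 0.95 (SE 0.09, adjusted p = 0.00486). It was past the threshold in all 21 alternative settings, which held for Ccn2 as well and for none of the other 63 genes.

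Fos and Fosb, the partners of Jun, were measured at low to middle levels. Fos levels were 4.69, 5.45 and 5.53 in the treated WT arrays and 6.19, 6.70 and 6.31 after p38α deletion, and differed by 1.22 (SE 0.19, adjusted p = 0.0262). Without TGF-β the order was turned, with a difference of −0.43 that did not pass (unadjusted p = 0.049), from 5.18 to 5.81 in 4 WT arrays and 4.49 and 5.57 in the p38α∆ arrays. Fosb went from 5.33, 5.01 and 5.17 to 5.86, 6.33 and 6.27, by 0.91 (SE 0.14, adjusted p = 0.0262). Jund, an AP-1 subunit that quiescent cells also express, went from 9.68, 9.17 and 9.45 to 10.18, 10.03 and 10.20, by 0.68 (SE 0.10, adjusted p = 0.0262). A dimmer probeset of Jund, at a mean of 5.30, gave −0.16. Creb5, a leucine zipper factor that binds CRE sites, went from 3.85, 4.22 and 4.19 to 4.85, 5.83 and 5.89. The treated WT values lay at the range of the endothelial marker means, 3.30 to 4.21, and are not shown to be above background. Of the 4 other probesets of Creb5 1 gave 1.19 and the others 0.05 to 0.16 at means of 2.92 to 3.98. The remaining Fos and Jun proteins, looked up after the values of the list had been seen, did not pass: Junb gave 0.28 (SE 0.20), Fosl1 0.25 (SE 0.14) and Fosl2 −0.06 (SE 0.11).

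**Figure D2:**
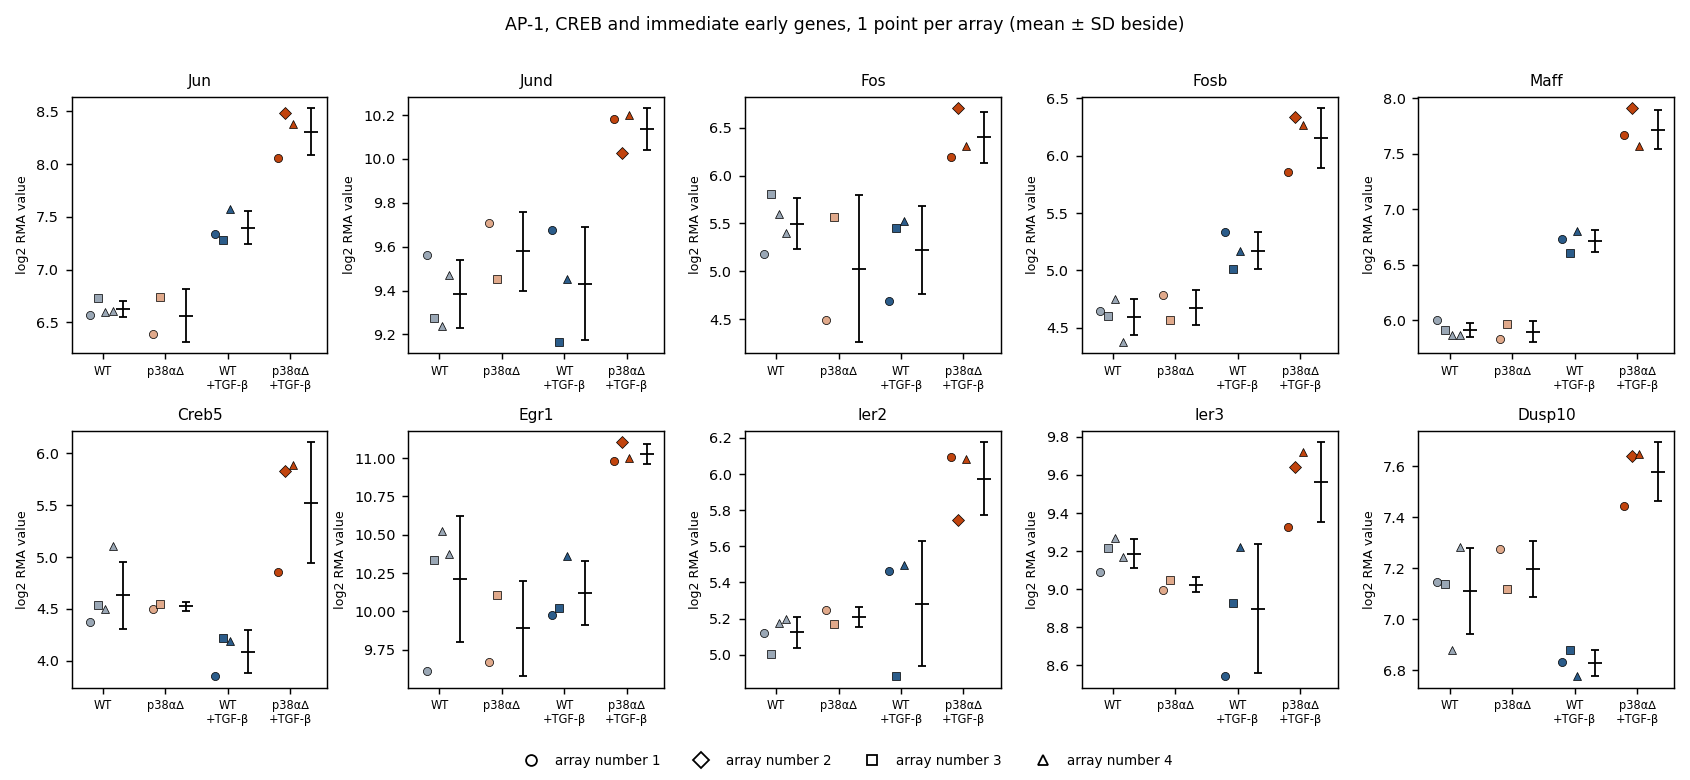
Log2 RMA value (vertical axis) of 10 genes that rose, 1 point per array, with shape for the array number (4b drawn as 4), color for the group, and mean ± SD beside the points. With TGF-β all 3 p38α∆ arrays are higher than all 3 WT arrays in the 10 panels, and the lowest array for Fos, at 4.49, is an untreated p38α∆ array.

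The promoters of 3 of these genes are shown because they carry a CRE or a one-base relative of it close to the annotated start. The windows run from 250 bases before to 50 after the start (RefSeq, GRCm38.p6), with the motif in capitals: TGACATCA in Jun (chr4:95052173-95052472, minus strand), which begins 45 bases before the start, and TGACGTCA in Creb5 (chr6:53287053-53287352, plus strand) and Mcam (chr9:44134408-44134707, plus strand), 45 and 29 bases before it.
Jun: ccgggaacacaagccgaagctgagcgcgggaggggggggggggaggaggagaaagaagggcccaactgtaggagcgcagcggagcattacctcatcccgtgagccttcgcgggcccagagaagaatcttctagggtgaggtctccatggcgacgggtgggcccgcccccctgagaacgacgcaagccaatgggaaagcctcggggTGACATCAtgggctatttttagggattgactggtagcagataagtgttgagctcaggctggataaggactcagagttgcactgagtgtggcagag
Creb5: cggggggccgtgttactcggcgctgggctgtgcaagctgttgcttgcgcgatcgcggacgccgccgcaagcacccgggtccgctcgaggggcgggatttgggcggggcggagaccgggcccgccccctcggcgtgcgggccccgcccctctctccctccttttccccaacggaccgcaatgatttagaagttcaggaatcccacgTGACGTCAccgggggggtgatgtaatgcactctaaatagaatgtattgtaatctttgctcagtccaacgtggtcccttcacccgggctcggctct
Mcam: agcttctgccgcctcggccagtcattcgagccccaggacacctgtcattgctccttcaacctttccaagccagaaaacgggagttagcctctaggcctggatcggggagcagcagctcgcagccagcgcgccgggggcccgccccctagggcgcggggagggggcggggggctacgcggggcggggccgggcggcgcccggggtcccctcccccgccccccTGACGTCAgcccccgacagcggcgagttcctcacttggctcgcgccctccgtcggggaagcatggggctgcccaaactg

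Of the 54 higher genes 42 had a promoter in the table used. The AP-1 sequence TGANTCA lay on either strand in 7 of them (16.7%; AA467197, Btbd11, Creb5, Sipa1l2, St6gal1, Tmcc3 and Xaf1), against 7.71% of 13605 genes. TGACGTCA lay in 4 (9.52%; Creb5, Hs3st3a1, Maff and Mcam), against 2.93%. TGACATCA, searched after the Jun promoter had been read, lay in 7 (16.7%; Clcn5, Dusp10, Jun, Maff, Prickle2, Prkag2 and Tmcc3), against 2.92%. Genes with more than 1 start have more than 1 window, and these shares are by gene. Of 65 windows of the higher genes 12.3% held TGANTCA, 6.15% TGACGTCA and 12.3% TGACATCA. Of 17065 windows of all genes 6.51%, 2.50% and 2.45% did. By gene, the Smad sequence CAGACA lay in 7 of the 42 (16.7%), against 20.5%, the TEAD sequence GGAATG in 8 (19.0%), against 15.3%, and the E-box CACGTG in 4 (9.52%), against 10.2%. None of the 42 held the CArG box of serum response factor, which lay in 1.65% of all genes. By window the shares were 10.8% against 17.9% for CAGACA, 12.3% against 13.2% for GGAATG and 6.15% against 8.69% for CACGTG. Of the 11 lower genes 9 had a promoter, and none of the AP-1, CRE and TGACATCA sequences was found in them. At the shares of all genes, their absence from 9 promoters says little. CAGACA lay in 3 of the 9 (33.3%), GGAATG in 2 (22.2%), CACGTG in 1 (11.1%) and the CArG box in 0. These counts describe letters in short windows, and were not tested.

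Immediate early genes and feedback inhibitors of kinases were higher as a list. Of 37 measured members 4 rose (Egr1, Ier2, Ier3 and Dusp10), none fell and 33 did not pass. Above 0 lay 28, beside 47.3% of all genes, and 17 were higher with an unadjusted p under 0.05, beside 4.29%. The median difference was 0.28, 0.17 within number 1 and 0.23 within number 4, and 0.01 between untreated p38α∆ and WT MSCs. Egr1, a zinc finger factor of the early growth response, had levels of 9.98, 10.02 and 10.36 in treated WT arrays and 10.98, 11.10 and 11.00 in the treated p38α∆ arrays, a difference of 0.91 (SE 0.17, adjusted p = 0.0456). Untreated arrays spread from 9.61 to 10.53, and so covered the treated WT arrays but not the treated p38α∆ arrays. Ier2 rose by 0.69 (adjusted p = 0.0409) and Ier3, which modulates apoptosis, by 0.65 (adjusted p = 0.0456). Egr1, Ier2 and Ier3 each passed in 1 of the 12 settings that left out 1 array, and Dusp10 in 6.

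Dusp10, a phosphatase that inactivates JNK and p38, had levels of 6.83, 6.88 and 6.78 in the treated WT arrays and 7.44, 7.64 and 7.65 in the treated p38α∆ arrays, a difference of 0.73 (SE 0.11, adjusted p = 0.0262). It was the phosphatase of the list that passed. The others are given because of their shared role and were looked up after the list's values had been seen. Dusp16, also a JNK phosphatase, gave 0.87 (adjusted p = 0.0976), Dusp6, an ERK phosphatase, 0.84 (adjusted p = 0.303), and Dusp14 0.63 (adjusted p = 0.063). Dusp1 gave 0.51, Dusp4 0.36, Dusp2 0.23, Dusp8 0.18 and Dusp7 −0.13, and these 8 missed the threshold. Spry1, an inhibitor of receptor tyrosine kinase signaling, went the other way (−0.69, adjusted p = 0.0765).

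Among the kinases themselves 1 gene passed. Map3k4, which activates the kinases upstream of p38 and JNK, went from 6.83, 6.84 and 7.05 to 7.43, 7.47 and 7.41 and rose by 0.52 (SE 0.08, adjusted p = 0.0263). It was 1 of 20 measured members of the JNK module, of which 19 did not pass. Over the module the median came to 0.10, with −0.02 for number 1 and 0.19 for number 4, and ran from 0.02 without TGF-β-treated p38α∆ array 4 to 0.24 without TGF-β-treated p38α∆ array 1. None of 27 members of the p38 module passed (median −0.07, −0.09 within number 1, −0.01 within number 4, and 0.01 without TGF-β-treated p38α∆ array 1). At an unadjusted p under 0.05 the module had 2 higher and 2 lower members, beside 4.29% and 4.1% of all genes. Its member with the smallest p was Map2k6, a direct activator of p38, at 4.56, 4.80 and 4.77 in the treated WT arrays and 5.22, 6.16 and 5.59 in the treated p38α∆ arrays (0.84, SE 0.20, adjusted p = 0.127). The 3 arrays of each genotype did not overlap for Map2k6, but untreated arrays of both genotypes, at 5.83 to 6.91, lay above most of them.

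Targets of TGF-β and its Smads, and of YAP, had few members past the threshold. Ccn2, which belongs to both lists, was the 1 of 44 measured TGF-β and Smad targets that rose, none fell, and the median was 0.08 (0.03 within number 1 and 0.08 within number 4). Ccn2 levels were 6.97, 7.61 and 7.04 in the treated WT arrays and 8.72, 9.22 and 9.01 in the treated p38α∆ arrays. Untreated levels, at 3.35 to 4.28, lay in or just above the range of the endothelial marker means, 3.30 to 4.21. They are thus not shown to be above background, and no size is given for the TGF-β response of Ccn2. The untreated genotype estimate of Ccn2, 0.59 (unadjusted p = 0.0093 in limma), did not pass. It rests on these same levels and is not read as a size. TGF-β itself raised 4.51% and lowered 5.32% of genes in WT MSCs, and raised 3.4% and lowered 4.92% in p38α∆ MSCs. Smurf1, a ubiquitin ligase that targets Smads, had the next smallest p (0.37, adjusted p = 0.125). Of 29 YAP and TEAD targets, Ccn2 and Foxf2 rose and none fell (median 0.12, 0.14 within number 1 and 0.17 within number 4). Foxf2, a forkhead factor of mesenchyme, went from 7.53, 7.70 and 7.33 to 7.96, 8.18 and 8.06 (0.54, SE 0.09, adjusted p = 0.0401).

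Growth factor and Notch lists each had 1 member that passed. Hbegf, a ligand of the EGF receptor, was the 1 of 15 EGF family genes that rose and none fell (median 0.03). Its levels of 8.86, 9.33 and 9.27 in the treated WT arrays and 9.74, 10.23 and 10.16 in the treated p38α∆ arrays lay far above the untreated arrays, at 6.24 to 6.89. Dtx4, a ubiquitin ligase of the Deltex family that modulates Notch, was the 1 of 21 Notch genes that rose (0.87, SE 0.11, adjusted p = 0.011) and none fell. It went from 6.53, 6.55 and 6.50 to 7.29, 7.37 and 7.55, and its untreated estimate was 0.35 (unadjusted p = 0.0096), which did not pass. None of 38 Wnt, 31 BMP and activin, 32 FGF, PDGF and IGF or 42 cytokine and NF-κB genes passed. The members with the smallest p in these lists were Wnt9a (0.72, adjusted p = 0.0954), Smad9 (0.45, adjusted p = 0.0976), Gdnf (−0.43, adjusted p = 0.171) and Ccl5 (0.65, adjusted p = 0.227).

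Interferon-response genes were higher in TGF-β-treated p38α∆ MSCs for 20 of 26 measured members. Irf9 and Xaf1 rose, none fell and 24 did not pass, and 10 were higher with an unadjusted p under 0.05, against 47.3% of all genes above 0 and 4.29% higher with such a p. The median was 0.16, 0.29 within number 1 and 0.09 within number 4, and 0.03 untreated with 15 of 26 above 0. Irf9, the DNA-binding subunit of the factor that type I interferon activates, had levels of 5.99, 6.18 and 6.10 in the treated WT arrays and 6.75, 6.79 and 6.96 in the treated p38α∆ arrays (0.75, SE 0.13, adjusted p = 0.0368). Untreated WT arrays, at 6.71 to 7.24, lay near or above the treated p38α∆ arrays: the TGF-β estimate for Irf9 was −0.80 in WT MSCs (adjusted p = 0.00065) and −0.43 in p38α∆ MSCs (adjusted p = 0.10). Xaf1, an interferon-induced inhibitor of XIAP, went from 4.91, 5.19 and 5.20 to 6.09, 5.88 and 6.50 (1.12, SE 0.21, adjusted p = 0.0489). Its TGF-β estimates were −1.20 in WT MSCs (adjusted p = 0.0012) and −0.60 in p38α∆ MSCs (adjusted p = 0.18). Outside the list, Ube2l6, which conjugates the interferon-induced modifier ISG15, rose from 6.75, 6.16 and 6.55 to 7.29, 7.10 and 7.05 (0.62, adjusted p = 0.0401). The differences between the TGF-β responses of these 3 genes, 0.37, 0.60 and 0.43, did not pass.

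Genes of G1/S and DNA replication were lower in TGF-β-treated p38α∆ MSCs for 36 of 38 measured members, beside 9010 of all 17097 genes. Mcm10 and Uhrf1 fell, none rose and 36 did not pass, and 21 were lower with an unadjusted p under 0.05, beside 4.1% of all genes. The median was −0.32, −0.31 within number 1 and −0.29 within number 4, and stayed between −0.41 and −0.25 when each array was left out in turn. Between untreated p38α∆ and WT MSCs it was 0.02, with 23 of 38 above 0. Mcm10, which helps the replicative helicase to start, had levels of 6.12, 6.49 and 6.40 in the treated WT arrays and 5.05, 5.88 and 5.41 in the treated p38α∆ arrays (−0.94, SE 0.14, adjusted p = 0.0262). Uhrf1, which brings the maintenance methyltransferase to replicated DNA, went from 7.07, 7.07 and 6.94 to 6.03, 6.63 and 6.24 (−0.79, adjusted p = 0.0456). TGF-β raised both in WT MSCs, Mcm10 by 0.44 (adjusted p = 0.046) and Uhrf1 by 0.47 (adjusted p = 0.032), and in p38α∆ MSCs its estimates were −0.67 (adjusted p = 0.026) and −0.39 (adjusted p = 0.21). The interaction, −1.11 and −0.86, did not pass for either gene.

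The subunits of the replicative helicase itself, looked up together after the list's values had been seen, did not pass. Mcm5 gave −0.81 (adjusted p = 0.0787), Mcm2 −0.52 (adjusted p = 0.0989), Mcm4 −0.42, Mcm6 −0.39, Mcm3 −0.37 and Mcm7 −0.28. All 6 were negative within number 1 and within number 4. Cdc6, which loads the helicase onto DNA, went from 5.83, 6.24 and 6.42 to 4.95, 5.60 and 5.05 without passing (−0.99, SE 0.19, adjusted p = 0.063). Of 39 genes of mitosis and the spindle 38 were below 0, beside 9010 of all 17097 genes, and none passed. Lower with an unadjusted p under 0.05 were 11, beside 4.1% of all genes. The median of the mitosis list was −0.28, and −0.21 and −0.12 within numbers 1 and 4. It was −0.14 without TGF-β-treated WT array 3, whose mean level for the list, 5.77, was above 5.14 and 5.23 in the other treated WT arrays. Aurkb, a kinase of chromosome segregation, had the smallest p (−0.84, SE 0.22, adjusted p = 0.168), with 5.70, 6.51 and 5.59 in the treated WT arrays and 4.82, 5.50 and 4.84 in the treated p38α∆ arrays. The mean level of the replication list was 6.08, 6.46 and 6.29 in TGF-β-treated WT arrays 1, 3 and 4 and 5.73, 6.14 and 5.90 in p38α∆ arrays 1, 2 and 4, so that array 2 of p38α∆ lay above array 1 of WT. In cultures measured in bulk, fewer cycling cells and less of these RNAs per cell cannot be told apart. None of 30 D cyclins, CDK inhibitors and p53 targets passed (median −0.00), with the smallest p for Cdkn1c, a CDK inhibitor (0.74, adjusted p = 0.066).

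**Figure D3:**
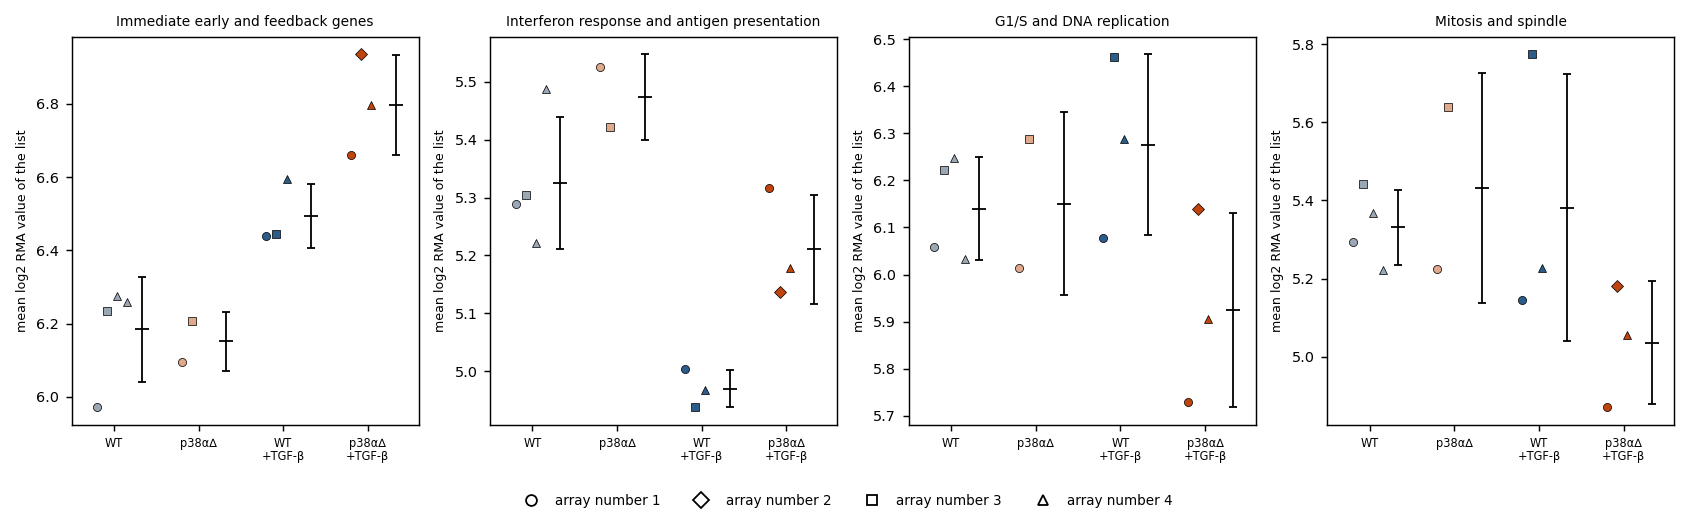
Mean log2 RMA value over the members of 4 lists (vertical axis), 1 point per array, with shape for the array number and mean ± SD beside the points. The treated p38α∆ arrays lie above the treated WT arrays for immediate early and interferon genes, and the groups overlap for both cell cycle lists, where arrays numbered 1 are the lowest of their treated group.

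Metabolic genes that passed were scattered over lists whose medians lay near 0. Txnip, which restrains glucose uptake and binds thioredoxin, had levels of 7.53, 8.01 and 7.77 in the treated WT arrays and 6.86, 7.15 and 7.01 in the treated p38α∆ arrays. All untreated arrays were at 9.22 to 9.61, and the TGF-β estimates were −1.56 in WT and −2.47 in p38α∆ MSCs (adjusted p = 9.2e-06 and 3.4e-06). It was the 1 of 30 genes of glycolysis and glucose uptake and 1 of 21 FoxO and quiescence genes that fell, and none rose (medians −0.05 and −0.08). Cpt2, the inner carnitine palmitoyltransferase of mitochondria, was the 1 of 37 genes of fatty acid and branched-chain oxidation that fell (median −0.03) and none rose. Its arrays were tight, at 5.77, 5.78 and 5.81 against 5.28, 5.31 and 5.33. Tmem86a, an enzyme of plasmalogen breakdown, went from 7.06, 6.95 and 7.11 to 6.10, 6.35 and 5.83, and was the 1 of 44 phospholipid genes that fell, with none that rose.

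Outside the metabolic lists, Prkag2, a regulatory subunit of AMP-activated kinase, rose from 6.27, 6.48 and 6.45 to 6.98, 7.16 and 7.20 (0.71, SE 0.10, adjusted p = 0.015). Its untreated arrays, at 6.85 to 7.13, were close to the treated p38α∆ arrays. Gamt, of creatine synthesis, rose by 0.76 (adjusted p = 0.0372) and Ak3, a mitochondrial adenylate kinase, by 0.61 (adjusted p = 0.0495). None of 45 genes of oxidative phosphorylation (median −0.03) or 48 ribosomal proteins (median 0.01) passed, and their smallest p belonged to Ndufs7 (0.21) and Rps10 (−0.38). None of 31 sterol and fatty acid synthesis genes passed either. Their median was −0.12, but −0.34 within number 1 and 0.04 within number 4, and it moved to 0.06 without TGF-β-treated p38α∆ array 1. Scd1, a desaturase, had the smallest p (−0.42, adjusted p = 0.0985).

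Of the matrix, contractile and adhesion lists, the contractile one was mostly above 0. None of 22 collagens passed. Below 0 were 15, beside 9010 of all 17097 genes, and 6 were lower with an unadjusted p under 0.05, beside 4.1%. The collagen median was −0.19, −0.24 within number 1 and −0.17 within number 4. Col6a2, a chain of the beaded-filament collagen VI, had the smallest p (−0.57, SE 0.12, adjusted p = 0.0971), with 10.33, 10.02 and 10.15 in the treated WT arrays and 9.78, 9.50 and 9.50 in the treated p38α∆ arrays. Of 38 contractile and actin genes 31 were above 0, beside 47.3% of all genes, and 10 were higher with an unadjusted p under 0.05, beside 4.29%. Their median was 0.14, 0.13 within number 1 and 0.12 within number 4, and −0.00 untreated. The 1 that rose was Acta2, smooth muscle actin, through a dim probeset at 3.63, 3.67 and 3.56 against 4.26, 4.78 and 4.67. These treated WT values lay in the range of the endothelial marker means, 3.30 to 4.21, and are not shown to be above background. The bright probeset of Acta2 gave 0.10 (unadjusted p = 0.257 in limma). None of 28 matrix proteases and inhibitors or 24 integrin and focal adhesion genes passed, with the smallest p for Plau, the urokinase protease (0.53, adjusted p = 0.105), and Itga10, a collagen-binding integrin (−0.80, adjusted p = 0.063).

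Of 35 adhesion molecules of the cadherin and immunoglobulin families, Mcam rose and Kirrel3 fell. Mcam went from 4.33, 4.20 and 4.31 to 5.26, 5.46 and 5.62, and the untreated arrays of both genotypes, at 4.06 to 4.48, lay around the treated WT arrays. These lower values lay near the top of the range of the endothelial marker means, 3.30 to 4.21, and are not shown to be above background. Kirrel3 went from 7.40, 7.22 and 7.83 to 6.43, 6.98 and 6.78, and its other probeset gave 0.02. Outside that list, Pvr, an immunoglobulin-family ligand of nectins, rose from 5.56, 5.39 and 5.50 to 6.14, 6.36 and 6.35 (0.78, SE 0.10, adjusted p = 0.0131). Thbd, the thrombin receptor thrombomodulin, rose from 5.02, 5.18 and 5.00 to 6.04, 5.86 and 5.65 (0.80, SE 0.10, adjusted p = 0.0108), and its untreated arrays, at 5.94 to 6.26, were above all treated WT arrays. Fbln7, a fibulin of the matrix, rose by 0.94 (adjusted p = 0.027) and its untreated estimate, which did not pass, was 0.60 (unadjusted p = 0.0022). Ccn5, a matricellular relative of Ccn2, fell by 0.98 (adjusted p = 0.0398), and its untreated p38α∆ arrays, at 7.10 and 7.13, lay below the 4 WT arrays, at 7.21 to 7.91.

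Enzymes that modify glycans passed in both directions. In the glycosylation list of 35 genes, St6gal1, which adds terminal sialic acid, rose from 4.08, 4.15 and 4.21 to 4.52, 4.68 and 4.58, and Pomgnt1, which extends the O-mannose glycans of dystroglycan, fell from 6.94, 7.02 and 7.26 to 6.46, 6.71 and 6.47 (−0.58, adjusted p = 0.0456). The sulfotransferases of heparan sulfate Hs6st1 and Hs3st3a1, in no list, rose by 0.66 (adjusted p = 0.0401) and 0.52 (adjusted p = 0.027). Untreated, St6gal1 gave 0.35 (unadjusted p = 0.00078) and Pomgnt1 0.04, and neither passed. The treated WT values of St6gal1 lay in the range of the endothelial marker means, 3.30 to 4.21, and are not shown to be above background.

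A further pair of lists had 1 member that fell and none that rose. Ints4, of the Integrator complex that cuts nascent RNA, went from 9.02, 8.89 and 8.77 to 8.41, 8.49 and 8.39 and was the 1 of 42 genes of RNA processing and polymerase II (median −0.07). Zfp467, a zinc finger factor of mesenchymal progenitors, went from 4.86, 4.86 and 5.43 to 4.20, 4.62 and 4.46 and was the 1 of 35 chondro-osteogenic and adipogenic regulators (median 0.01). Its other 2 probesets gave −0.28 and 0.03. Rtl3, of a retrotransposon-derived gene family, was the last of the 11 genes that fell (−0.49, adjusted p = 0.0495). In the remaining 11 lists none passed. Their members with the smallest p were Mxi1 for hypoxia targets (0.44), Sdf2l1 for the unfolded protein response (0.36), Stc2 for ATF4 and amino acid genes (0.56), Sod3 for NRF2 and detoxification (−0.85), Tpp1 for lysosome and autophagy (0.40), Nfil3 for the circadian clock (0.52), Hspb8 for heat shock (0.32), Sema5a for axon guidance (−0.50), Atp1b1 for channels and transporters (0.54), Zfp36l1 for AU-rich mRNA regulators (−0.39) and Masp1 for complement (0.31).

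**Figure D4:**
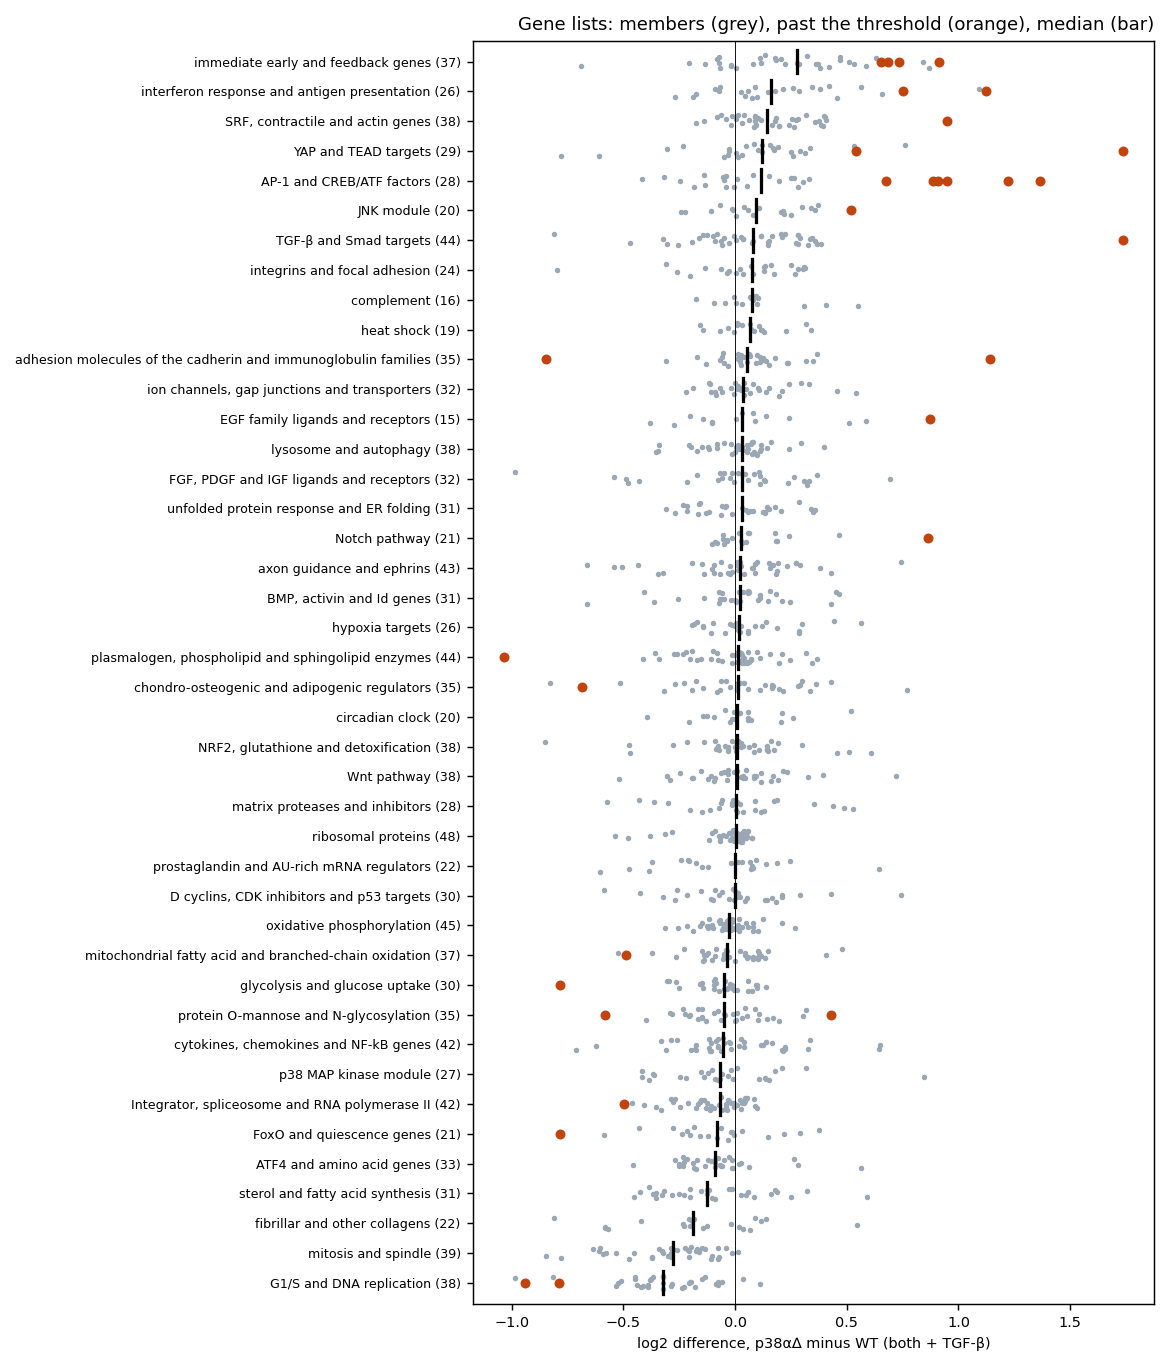
Log2 difference of p38α∆ minus WT MSCs with TGF-β (horizontal axis) for the measured members of 42 gene lists (rows, number measured in brackets), with members past the threshold in orange and the list median as a black bar. Immediate early genes have the highest median (0.28) and G1/S and DNA replication the lowest (−0.32), and most medians lie close to 0.

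Of the 65 genes 36 were in no list. Gnb4, a β subunit of heterotrimeric G proteins, rose from 5.89, 6.19 and 6.13 to 6.73, 7.31 and 7.12 (0.93, SE 0.12, adjusted p = 0.0143). Btbd11, an ankyrin and BTB domain protein, rose from 5.74, 5.77 and 5.93 to 6.72, 6.81 and 6.71 (0.90, SE 0.10, adjusted p = 0.00493) and passed in 19 of 21 settings. Slc1a1, a glutamate transporter, rose by 0.93 (adjusted p = 0.0446), and the potassium-dependent sodium/calcium exchanger Slc24a3 by 0.70 (adjusted p = 0.0252). Genes with the 20 largest rises that are without a well-defined role here were Tmem191c (1.39), Tmcc3 (1.25), AA467197 (1.14) and Pxdc1 (0.83). Smaller rises included Hhipl1 (0.72), the calcium sensor Hpcal1 (0.72), the translational repressor Samd4 (0.75; other probesets 0.50 and −0.06), the Rap regulator Sipa1l2 (0.62), the BCL2 relative Bok (0.52), the Rac activator Arhgef6 (0.55) and the polarity protein Prickle2 (0.57).

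In the untreated arrays, 2 of p38α∆ and 4 of WT MSCs, limma called no gene, with 845 genes (4.94%) at an unadjusted p under 0.05 and a smallest adjusted p of 0.348. Of the 54 genes that were higher with TGF-β, 43 were above 0 in these arrays, beside 49.8% of all genes, and 19 were higher with an unadjusted p under 0.05, beside 2.94%. The 19 include Ccn2, whose untreated levels are not shown to be above background. The median of the 54 genes was 0.18 untreated and 0.74 with TGF-β. Both differences come from 1 fit that shares the spread of each gene and the array block. Choosing genes by their p with TGF-β thus also favours a small untreated SE, and these counts are not independent of that choice. Of the 11 lower genes 5 were below 0 untreated, 3 of them with an unadjusted p under 0.05 (Ccn5, Kirrel3 and Rtl3). Untreated estimates close to 0 were those of Jun (−0.02), Maff (−0.03), Tmcc3 (0.00) and Creb5 (0.05), while the untreated estimates of Gnb4 (0.51) and Fbln7 (0.60) were larger and did not pass either. The difference between the TGF-β responses of the genotypes was tested in the same fit and passed for no gene (919 genes, 5.38%, at an unadjusted p under 0.05 and a smallest adjusted p of 0.218). It was 1.66 for Fos, 1.31 for Creb5, 1.25 for Tmcc3 and 1.12 for Egr1, and for these genes the treated and the untreated difference are therefore not shown to be unequal.

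**Figure D5:**
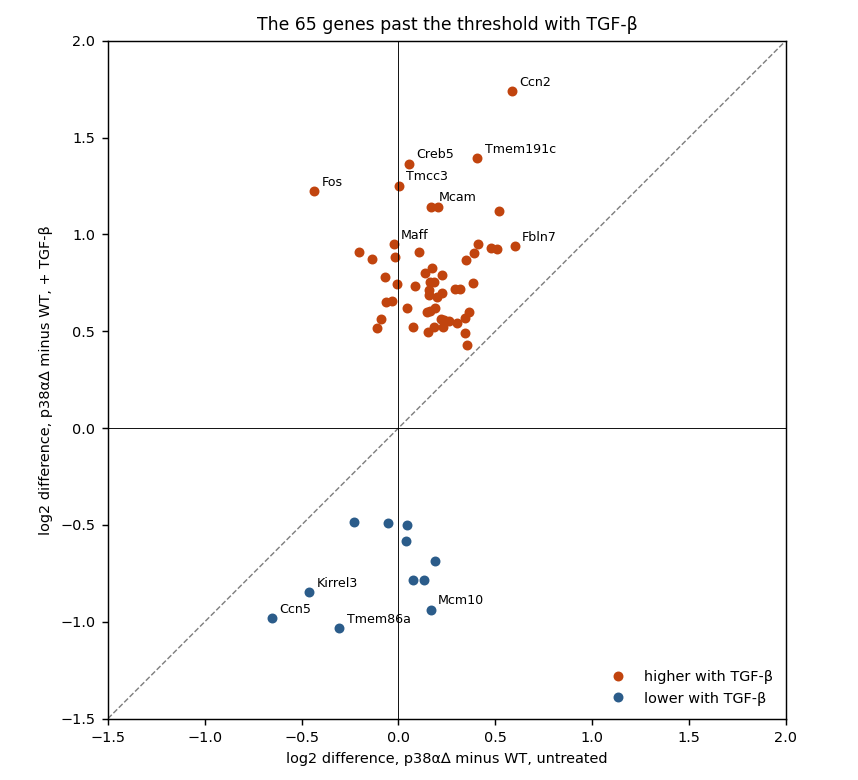
Log2 difference between p38α∆ and WT MSCs with TGF-β (vertical axis, 3 against 3 arrays) and untreated (horizontal axis, 2 against 4 arrays) for the 65 genes that passed with TGF-β, with the line of equal differences dashed. The genes were chosen on the vertical axis, and on the horizontal axis 43 of the 54 higher genes lie above 0, with Fos at −0.43.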

How the data were processed

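RNA of 12 samples was amplified and hybridized to Affymetrix MG-430 PM arrays. The deposited probeset values are log2 intensities that the authors obtained by RMA, and no scaling was added. The authors adjusted for scanning batch, which is not given in the sources used here. RMA shrinks small differences near the bottom of the scale. Of 45101 rows, 64 controls were left out. Of 45037 probesets 28898 named 1 gene, 551 several and 15588 none. For each of the 17097 genes the probeset that varied most over all arrays, by median absolute deviation, was kept. All arrays entered 1 limma fit (limma 3.58.1, R 4.3.3) with 4 group means and the array number (4b counted as 4) as a random block (estimated correlation 0.52, and 0.11 without the 4 arrays numbered 1). P-values are two-sided, and adjusted p-values are Benjamini-Hochberg values over all genes, with a threshold of 0.05. The number of arrays limits the precision. The fit was tested on simulated data in which every array number had a block effect of the same spread. The arrays do not show this, so that test does not check the choice of block.

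The comparison and the 42 gene lists (1280 genes measured), written from general knowledge, were chosen with earlier results of these data known. Genes named were Mapk14, all that fell, the 20 largest rises, list members that passed, the member of each list with the smallest p, and those said to be looked up later. Of the 54 genes that rose, those named without a list beyond the 20 largest were chosen after their values were seen. Other settings tried were the block, the arrays fitted, the probeset per gene, a filter on low levels, 2 further scalings, limma's trend and robust options, and leaving out arrays.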

Additional observations from a re-analysis of the deposited data

Results flagged for a closer look

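In 5 of 90 genes examined, 1 of the 4 untreated WT arrays stood far from the other 3, and chance alone flags about 1 in 20 such groups. WT array 4b was the lowest for Ccn5 (7.21, against 7.81 to 7.91; gap 0.861 of the range) and Col6a2 (9.75, against 10.18 to 10.22; gap 0.898 of the range), and the highest for Gnb4 (6.33, against 6.01 to 6.04; gap 0.881 of the range). WT array 1 was the highest for Btbd11 (5.24, against 4.90 to 4.95; gap 0.848 of the range) and the lowest for Scd1 (9.95, against 10.19 to 10.21; gap 0.919 of the range).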

How the results depend on the processing

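With TGF-β, 54 genes were higher and 11 lower. Without the replicate block 5 were higher and 0 lower (all by limma; 733 and 701 had an unadjusted p under 0.05 with it), with the array number as a fixed term 3 and 1, with the 6 treated arrays alone 109 and 29, with limma's trend and robust options 34 and 5, and without the 4 arrays numbered 1, where the estimated block correlation was 0.11, 22 and 3. Median centring gave 46 and 3. Leaving out 1 array at a time gave 5 to 63 higher and 0 to 15 lower. Higher counts were 6, 9 and 5 without TGF-β-treated WT arrays 1, 3 and 4, 23, 10 and 5 without TGF-β-treated p38α∆ arrays 1, 2 and 4, and 12 without untreated WT array 3. Lower counts in the same order were 2, 0 and 0, then 0, 1 and 0, and then 0. Untreated, leaving out 1 array gave 0 to 2 higher and 0 to 1 lower, with 2 and 1 without WT array 4b. Between the TGF-β responses, 3 probesets were higher when every probeset was fitted on its own. No difference of the 65 genes changed sign in any setting that kept 1 probeset per gene. With every probeset fitted on its own, 5 of the 42 other probesets of these genes had the opposite sign. Array numbers were treated as a block although they are not shown to pair the samples: deviations from the group means correlated between the treated genotypes by 0.858 for number 1 and 0.068 for number 4, and only these 2 numbers are shared. Calls lost without the block are not shown to be weaker effects. The cause of these shifts was not tested.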
